A study of Mus musculus with 8 samples.

Results

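10 genes of the IL-1 family of cytokines and receptors, Il1a, Il1b, Il1rn, Il1r1, Il1r2, Il1rap, Il1rl1, Il18, Il18bp and Il33, were chosen by name and followed through 8 arrays of mouse tumour tissue. The platform annotation named at least 1 probe set for 9 of them, out of 18194 named genes in all, and Il1rl1 was not analysed here. Where a gene had several probe sets, the brightest over the 8 arrays was used. Of the 9 genes measured, 8 passed the filter on low signals that left 12976 genes for testing, and Il1a, which lay below it, was fitted together with all genes.

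The tumours grew from MOPC cells, a murine oropharyngeal carcinoma line, injected under the skin of adult C57BL/6 mice that were either wild type (WT) or lacked the endosomal Toll-like receptors TLR3, TLR7 and TLR9 (Tlr3/7/9-/-, here KO). RNA of whole tumours was taken at day 4 or day 6 after injection, which gave 4 groups of 2 tumours: WT day 4, WT day 6, KO day 4 and KO day 6. The genotype is that of the host, so the injected tumour cells carried intact receptors in all 4 groups. No source used here says that every day 4 tumour came from a separate mouse, so the p-values measure the spread between tumours only.

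IL-1 alpha and IL-1 beta bind the receptor IL1R1, which then recruits the accessory protein IL1RAP and signals through MYD88 to NF-kappaB, while the receptor antagonist encoded by Il1rn and the decoy receptor IL1R2 hold this signal back. IL-18 and IL-33 are relatives that signal through similar receptor pairs, IL-33 also through IL1RAP, and IL-18 is neutralised by the IL-18 binding protein. IL-1 alpha and IL-33 are stored in epithelial and stromal cells and released on damage, whereas IL-1 beta comes mainly from myeloid cells and needs cleavage by caspase-1, so an mRNA level does not give the amount of active cytokine.

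The array values are MAS5 signal intensities on a linear scale, which are relative within each array and are therefore compared between tumours for 1 probe set at a time. The 2% trimmed mean was 1000 on all arrays, the median signal was 133.2 to 175.2, and replicate tumours had Spearman correlations of 0.941 to 0.953 over all probe sets. Tlr7 had signals of 382.9 to 673.4 in the WT and 10.8 to 80.1 in the KO tumours, and Tlr3 of 543.9 to 811.1 and 224.0 to 427.2. Tlr9 lay below the filter with 20.8 to 137.6 in WT and 84.2 to 128.5 in KO tumours. Whether its probe set lies outside the deleted stretch was not examined, and such a probe set would not test the genotype. Xist had signals of 5579.1 to 7121.0 in all 4 day 6 tumours and 44.6 to 142.1 in all 4 day 4 tumours, so the sex of the host and the day cannot be told apart in any comparison of days. The summed signal of 10 skeletal muscle genes was 167853 in WT day 4 replicate 2, 61987 in KO day 6 replicate 2 and 25537 in KO day 4 replicate 2, against 772 to 1102 in the other 5 tumours. KO day 6 replicate 2 also had the highest sum of the cornified skin genes (31815 against 1739 to 3474). The 10 markers of epithelial cells and carcinomas summed to 90442 in the same tumour, KO day 6 replicate 2, and to 43532 to 55586 in the others. In whole tumours, more cells of a type and more RNA per cell cannot be told apart.

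Between day 4 and day 6, Il18bp rose in both genotypes, by 2.29 on the log2 scale in WT and by 2.25 in KO tumours. Its day 4 signals were so low that it reached the filter only through day 6. The receptor genes Il1rap and Il1r1 rose in KO tumours by 1.17 and 0.99. In WT tumours they differed by 0.28 and 0.36 in the same direction on their brightest probe sets and did not pass. No member passed the test of whether the change with the day differed between the genotypes. No member passed the test between KO and WT tumours on either day. The largest difference between the genotypes relative to its error was that of Il1rap at day 6, with 1503.1 and 1537.7 in KO against 968.0 and 883.9 in WT tumours. Il1rn and Il1b differed by 1.83 and 1.23 between the days in KO tumours and did not pass. The promoters of the 3 called genes are shown because these members passed the test between the days. Each is a 300-base window of the RefSeq table for GRCm38.p6, written 5′ to 3′ on the strand of the gene, with the matches to the searched motifs in capitals. All 9 measured members were found in that table, with 13 promoters.
Il18bp, chr7:102018183-102018482, minus strand: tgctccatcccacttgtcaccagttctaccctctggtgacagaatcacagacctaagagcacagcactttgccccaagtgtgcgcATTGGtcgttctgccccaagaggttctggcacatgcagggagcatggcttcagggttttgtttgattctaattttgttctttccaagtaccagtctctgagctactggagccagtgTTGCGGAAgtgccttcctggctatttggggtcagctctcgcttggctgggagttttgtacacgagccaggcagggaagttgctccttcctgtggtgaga
Il1rap, chr16:26581455-26581754, plus strand: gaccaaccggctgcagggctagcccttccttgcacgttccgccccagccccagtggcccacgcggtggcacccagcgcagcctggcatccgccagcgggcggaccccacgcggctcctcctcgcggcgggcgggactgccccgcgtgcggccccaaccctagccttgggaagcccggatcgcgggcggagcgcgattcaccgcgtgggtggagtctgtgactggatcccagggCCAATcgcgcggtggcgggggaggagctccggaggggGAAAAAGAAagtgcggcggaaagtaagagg
Il1r1, upstream start, chr1:40224830-40225129, plus strand: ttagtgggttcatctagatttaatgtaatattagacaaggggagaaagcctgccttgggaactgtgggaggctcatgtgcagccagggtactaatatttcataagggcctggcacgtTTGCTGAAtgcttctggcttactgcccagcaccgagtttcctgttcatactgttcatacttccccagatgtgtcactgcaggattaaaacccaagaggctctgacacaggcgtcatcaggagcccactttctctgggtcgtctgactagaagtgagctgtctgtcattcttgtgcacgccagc
Il1r1, downstream start, chr1:40266336-40266635, plus strand: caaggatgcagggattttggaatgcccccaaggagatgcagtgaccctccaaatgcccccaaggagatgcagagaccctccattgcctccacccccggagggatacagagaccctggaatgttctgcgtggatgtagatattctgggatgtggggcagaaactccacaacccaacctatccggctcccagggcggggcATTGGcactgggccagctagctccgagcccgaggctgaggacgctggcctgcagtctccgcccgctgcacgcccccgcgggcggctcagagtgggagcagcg

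In the Il18bp window, a CCAAT box read on the other strand (ATTGG) began at position -165 and a C/EBP-type match (TTGCGGAA) at position -49, counted with the start of transcription as position 1. The Il1rap window held a CCAAT box at position -17 and a match to the core of the interferon-stimulated element (GAAAAAGAA) at position 21. The upstream window of Il1r1 held a C/EBP-type match (TTGCTGAA) at position -133, and the downstream window a CCAAT box on the other strand at position -52. On both strands, 7 motifs were searched in 32851 promoters: TTCNNNGAA (STAT) was found in 8.30% of them, GAAANNGAA (interferon-stimulated element) in 8.56%, GGNNTTTCC (part of an NF-kappaB site) in 5.82%, TGANTCA (AP-1) in 7.81%, TTGCNNAA (C/EBP) in 10.8%, TATAAA in 13.6% and CCAAT in 37.4%. Among the members, the NF-kappaB letters were found only at Il1rn, the AP-1 letters at Il1a and Il1rn, and the STAT letters at Il1r2. CCAAT, the commonest of the 7 motifs over all promoters, was the only one found at all 3 of the called genes. A match is a description of letters and not a tested site.

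**Figure D1:**
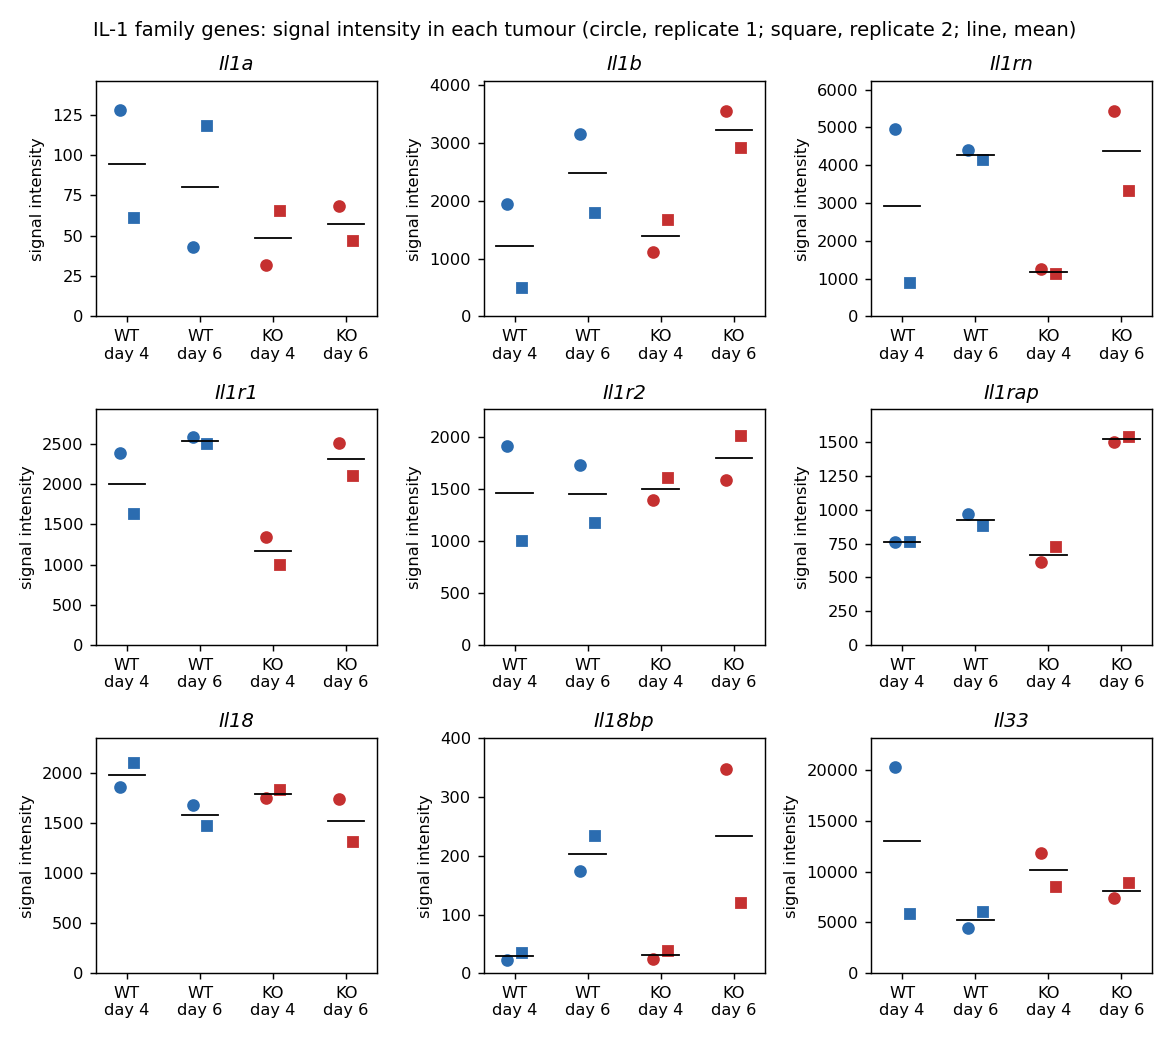
Signal intensity (linear, from 0) of the 9 measured IL-1 family genes in each of the 8 tumours, WT in blue and KO in red, with the mean of the 2 tumours as a line. The day 6 signals of Il18bp (120.3 to 348.0) all lie above its day 4 signals (23.1 to 37.8), and the KO day 6 tumours are the highest for Il1rap.

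Of the agonists, Il1b was measured well above the filter. Its signal was 1944.4 and 497.9 in WT day 4, 3146.6 and 1793.9 in WT day 6, 1110.1 and 1663.6 in KO day 4, and 3542.6 and 2904.6 in KO day 6 tumours. Both KO day 6 tumours lay above both KO day 4 tumours, while the WT groups overlapped because WT day 4 replicate 1 was higher than WT day 6 replicate 2. The log2 difference between day 6 and day 4 was 1.25 (SE 0.54) in WT and 1.23 (SE 0.54) in KO tumours, and neither passed limma's test (adjusted p = 0.193 and 0.197). Without WT day 4 replicate 1 the WT difference was 2.22 and passed (adjusted p = 0.0317). Without either WT day 4 tumour the KO difference, itself unaltered at 1.23, passed as well (adjusted p = 0.039 without replicate 1 and 0.0365 without replicate 2), since all 4 groups share 1 estimate of the spread. Summed over 10 neutrophil genes, the signal was 21354 in WT day 4 replicate 1 and 5694 in replicate 2. It was 6412 to 13652 in the other tumours. S100a8, which neutrophils make in large amounts, had 5636.4 in replicate 1 and 297.4 in replicate 2. S100a9 (5285.2 and 161.1) and Clec4d (8576.1 and 3854.5) were the other large terms of the sum. Camp (29.8 and 72.5) and Ltf (72.5 and 94.9), both below the filter, went the other way. The part of neutrophils in the spread of Il1b was not tested.

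Il1a, the other agonist of IL1R1, was low in all tumours. Its signal was 127.7 and 60.8 in WT day 4, 42.9 and 117.9 in WT day 6, 31.7 and 65.0 in KO day 4, and 68.5 and 46.6 in KO day 6 tumours. The 4 groups overlapped in their order of level, and the log2 differences lay between -0.76 (KO minus WT at day 4, SE 0.54) and 0.23 (day 6 minus day 4 in KO).

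The signal of Il1rn, the receptor antagonist, was 4946.7 and 887.7 in WT day 4, 4409.2 and 4134.0 in WT day 6, 1256.9 and 1113.5 in KO day 4, and 5432.0 and 3324.7 in KO day 6 tumours. The KO groups of the 2 days were separate, and WT day 4 held both a tumour as high as those of day 6 and the lowest tumour of all. The log2 difference between day 6 and day 4 was 1.83 (SE 0.63) in KO and 1.02 (SE 0.63) in WT tumours, and neither passed limma's test (adjusted p = 0.114 and 0.355). It passed in WT without WT day 4 replicate 1 (2.25, adjusted p = 0.0176) and turned to -0.21 without WT day 4 replicate 2. In KO it passed without either WT day 4 tumour (adjusted p = 0.00936 and 0.00874 without replicates 1 and 2). The other 2 probe sets of Il1rn gave 1.71 and 1.23 in KO and 1.32 and 0.83 in WT tumours, the same direction as the brightest. In WT day 4, replicate 1 thus had the higher signals of Il1b and Il1rn and the higher sum of the neutrophil genes. Replicate 2 had the lowest signals of Il1b and Il1rn among the 8 tumours together with the most muscle RNA.

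Il1r1, the signalling receptor for both agonists, rose between day 4 and day 6 in KO tumours. Its signal was 2388.5 and 1632.6 in WT day 4, 2585.8 and 2505.0 in WT day 6, 1343.8 and 989.6 in KO day 4, and 2517.8 and 2101.8 in KO day 6 tumours. The KO day 4 tumours were the lowest, below both WT day 4 tumours, and the day 6 tumours of both genotypes overlapped. The KO difference between the days was 0.99 on the log2 scale (SE 0.21, 1.98-fold, adjusted p = 0.0371 from limma), against 0.36 (SE 0.21, adjusted p = 0.328) in WT. The difference between KO and WT at day 4 was -0.77 (SE 0.21) and did not pass (adjusted p = 0.507). The call in KO was lost without either WT day 6 tumour (adjusted p = 0.0525 and 0.0529), either KO day 6 tumour (0.145 and 0.106) or either KO day 4 tumour (0.13 and 0.253), where the log2 difference stayed between 0.77 and 1.20. The other probe set of Il1r1 had signals of only 2.1 to 24.2.

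Il1rap, the accessory chain of the receptors for IL-1 and IL-33, also rose in KO tumours. Its signal was 758.9 and 758.8 in WT day 4, 968.0 and 883.9 in WT day 6, 613.1 and 725.5 in KO day 4, and 1503.1 and 1537.7 in KO day 6 tumours. On this brightest probe set, the groups ordered by level were KO day 6, WT day 6, WT day 4 and KO day 4. No neighbours in this order overlapped. The KO difference between the days was 1.17 (SE 0.15, 2.25-fold, adjusted p = 0.0132 from limma), against 0.28 (SE 0.15, adjusted p = 0.281) in WT. The call was lost without KO day 4 replicate 1 (1.05, adjusted p = 0.108) or replicate 2 (1.29, adjusted p = 0.113).

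Between the genotypes, KO minus WT, Il1rap differed by 0.71 (SE 0.15) at day 6 and by -0.18 (SE 0.15) at day 4, and neither passed (adjusted p = 0.704 and 0.892 from limma). The next 2 probe sets of Il1rap by brightness, at 297.2 to 579.3 and 160.1 to 327.0, gave smaller differences. These were 0.43 and 0.43 between KO and WT at day 6 and 0.64 and 0.55 between the days in KO. Between the days in WT they were -0.08 and -0.03, opposite in sign to the brightest. The remaining 2 had signals of 1.3 to 44.1 and 2.9 to 22.7. With the mean of all 5 probe sets the difference between the days in KO was 0.49 and no longer passed (adjusted p = 0.311), and that in WT was -0.09.

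**Figure D2:**
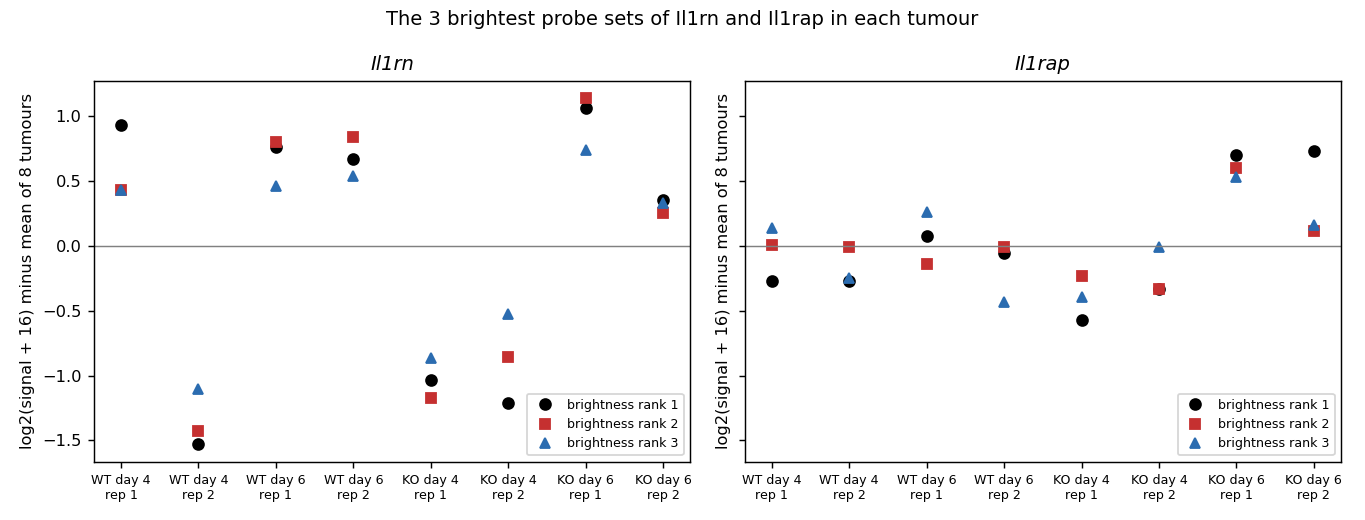
log2(signal + 16) of the 3 brightest probe sets of Il1rn (left) and Il1rap (right), each minus its own mean over the 8 tumours, with tumours on the x axis. The probe sets of Il1rn run together through the 8 tumours, and those of Il1rap share their highest value in KO day 6 replicate 1 or, for the brightest, in both KO day 6 tumours.

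Il1r2, the decoy receptor, passed limma's test in none of the comparisons. Its signal was 1910.9 and 1004.3 in WT day 4, 1732.1 and 1175.6 in WT day 6, 1390.9 and 1608.8 in KO day 4, and 1591.4 and 2009.3 in KO day 6 tumours. The ranges of neighbouring groups overlapped, and the log2 differences were 0.04 to 0.32, each with an SE of 0.30. The lowest tumour was again WT day 4 replicate 2.

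Il18 was the steadiest member, with 1864.1 and 2096.0 in WT day 4, 1681.3 and 1475.5 in WT day 6, 1746.7 and 1828.2 in KO day 4, and 1737.1 and 1308.1 in KO day 6 tumours. Within each genotype both day 6 tumours lay below both day 4 tumours. The log2 differences were -0.32 (SE 0.16, adjusted p = 0.259 from limma) in WT and -0.24 (SE 0.16, adjusted p = 0.383) in KO tumours and did not pass.

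Il18bp, the soluble inhibitor of IL-18, is a known interferon-gamma response gene and was the member with the largest rise. Its signal was 23.1 and 34.6 in WT day 4, 173.5 and 233.5 in WT day 6, 24.6 and 37.8 in KO day 4, and 348.0 and 120.3 in KO day 6 tumours. All 4 day 6 tumours were above all 4 day 4 tumours, and the genotypes overlapped on each day. The day 4 signals lay below the 40th percentile of their own arrays (87.4 to 103.1), so Il18bp reached the filter only through its day 6 signals, and its calls are no independent sign of a change. The rise was 2.29 (SE 0.51, 4.89-fold, adjusted p = 0.0404 from limma) in WT and 2.25 (SE 0.51, 4.77-fold, adjusted p = 0.0425) in KO tumours. The WT call was lost without either WT day 6, either WT day 4 or either KO day 4 tumour (adjusted p = 0.0581 to 0.199), with log2 differences of 2.09 to 2.49. With no filter on low signals neither call passed (adjusted p = 0.053 in WT and 0.0556 in KO). Il18bp does not reach a filter at the 60th percentile, so its values there come from the same fit over all genes and are no separate check. The KO call was lost without either WT day 6 tumour (adjusted p = 0.0594 and 0.0605), KO day 6 replicate 1 (1.54, adjusted p = 0.163) or either KO day 4 tumour (0.199 and 0.213).

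Il33, the alarmin of epithelial and stromal nuclei, had the signals 20223.3 and 5837.4 in WT day 4, 4460.7 and 6004.4 in WT day 6, 11824.0 and 8452.9 in KO day 4, and 7409.2 and 8848.6 in KO day 6 tumours. WT day 4 replicate 1 stood far above the other 7 tumours. At day 6 both KO tumours lay above both WT tumours, a log2 difference of 0.64 (SE 0.48) that did not pass limma's test (adjusted p = 0.865). The difference between the days was -1.07 (SE 0.48, adjusted p = 0.204) in WT and -0.30 (SE 0.48, adjusted p = 0.724) in KO. The WT difference passed without WT day 4 replicate 2 (-1.96, adjusted p = 0.0133), which leaves the higher tumour alone at day 4.

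**Figure D3:**
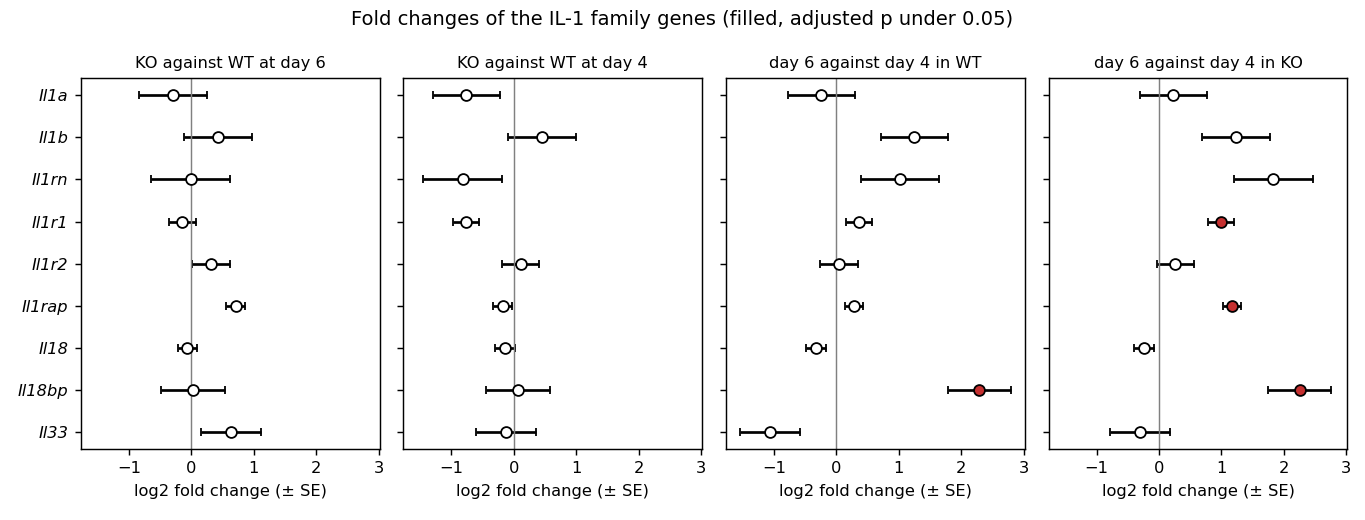
log2 fold change with its standard error for the 9 genes (rows) in the 4 comparisons of 2 groups (panels), where filled points passed limma's test over all genes. Filled points are found only between the days, for Il18bp in WT and for Il1r1, Il1rap and Il18bp in KO tumours.

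Counted over the 9 measured members, 0 were called between KO and WT at day 6, where 0.0154% of the 12976 tested genes were called, and 0 at day 4, where the share was also 0.0154%. At an unadjusted p under 0.05, there was 1 member on each day, Il1rap at day 6 and Il1r1 at day 4, against 6.35% and 7.11% of the tested genes. Over both days together 0 members were called (0.0308% of genes). At an unadjusted p under 0.05 there were 2, Il1r1 at -0.46 (SE 0.15) and Il1rap at 0.26 (SE 0.11), against 8.69% of the tested genes. Both KO tumours lay above both WT tumours for Il1rap and Il33 at day 6, and below them for Il1r1, Il1rap and Il18 at day 4. Of all tested genes, 37.0% did not overlap at day 6 and 36.4% at day 4 in either direction. 3 of 9 members at day 4 and 2 of 9 at day 6 are thus no more than the share of all genes. An exact permutation test of 2 tumours against 2 cannot give a two-sided p under 0.333. The median log2 difference of the 9 members between KO and WT was 0.03 at day 6 and -0.14 at day 4, and -0.01 and 0.01 over the tested genes. The summed signal of 12 marker genes of macrophages, cells that make several members, was 132333 to 144467 in the KO and 174684 to 206417 in the WT tumours, with 2 of 12 genes positive at day 6, 1 of 12 at day 4, and 0 called on either day. Their part in these differences was not tested. Without both tumours of most muscle RNA, the log2 difference of Il1rap at day 6 was 0.69 (adjusted p = 0.482 from limma), and Il1rn was called lower in KO at day 4 (-2.05, adjusted p = 0.0139), which rests on WT day 4 replicate 1 alone and takes its spread from the other groups.

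Between the days, 1 of 9 members was called higher at day 6 in WT, where 4.16% of the tested genes were. In KO, 3 of 9 were called higher, where the share was 3.71%. The WT call was that of Il18bp, which reached the filter only through day 6 and is also among the 3 in KO. Apart from Il18bp, no member was called in WT, and only Il1rap and Il1r1 were called in KO. None was called lower. At an unadjusted p under 0.05 the numbers were 2 in WT and 4 in KO tumours, against 25.6% and 26.1% of genes. In WT, 4 members did not overlap between the days (3 higher and 1 lower at day 6), with 53.6% of all tested genes. In KO, 6 did not overlap (5 higher and 1 lower), with 61.4% of genes, so these numbers are near those of all genes. The median of the 9 members was 0.28 in WT and 0.99 in KO tumours, beside medians of 0.01 and -0.00 over the tested genes. Without both tumours of most muscle RNA, 4 members were called in KO (Il18bp, Il1r1, Il1rap and Il1rn) and 2 in WT (Il18bp and Il33), with a single tumour in KO day 6 and in WT day 4 that is assumed to vary like the other groups. Passing in KO and not in WT does not show that the genotypes differ. The difference itself, KO effect at day 6 minus KO effect at day 4, was positive for 7 of 9 members with a median of 0.47, and 0 members and 0% of the tested genes passed limma's test of it. Without both tumours of most muscle RNA, 1 member, Il1rn, passed, with the same single tumours. At an unadjusted p under 0.05, the difference held 1 member, Il1rap, and 4.38% of genes.

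**Figure D4:**
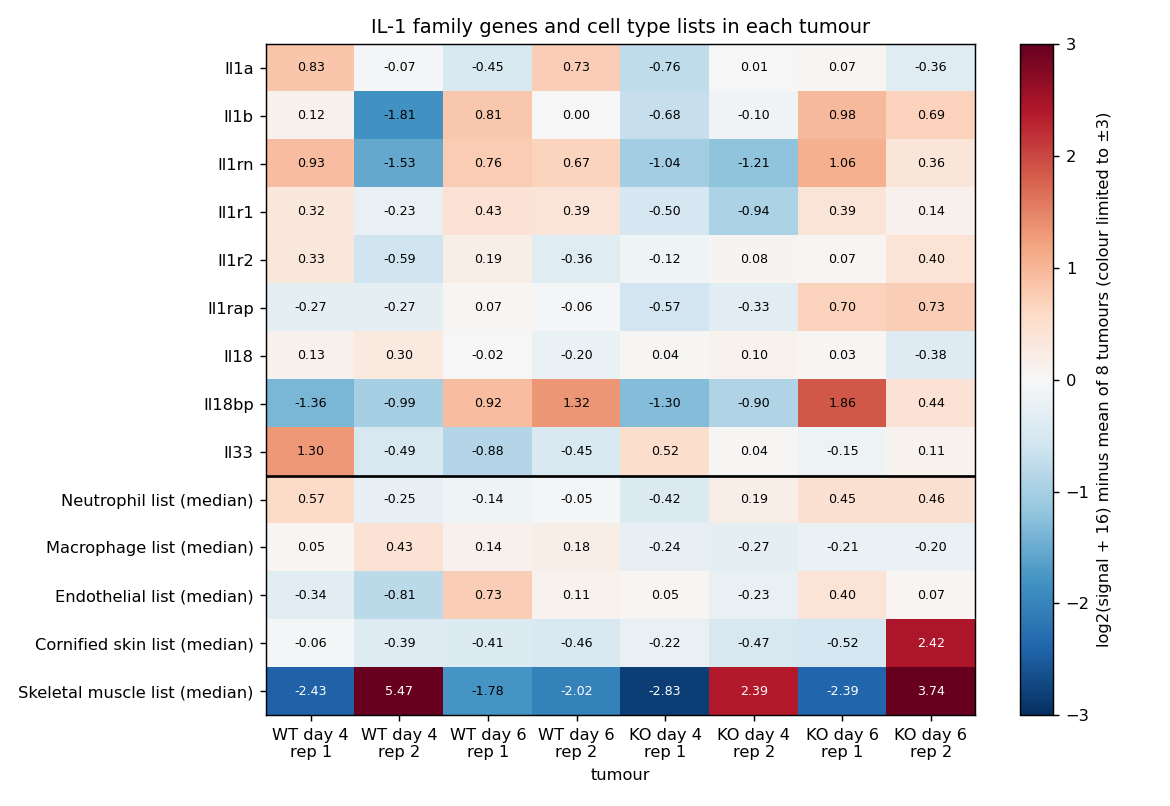
log2(signal + 16) minus the mean of the 8 tumours (colour limited to 3 either way, numbers in cells) for the 9 members and, below the line, the median over each of 5 cell type gene lists, with tumours as columns. Il1b and Il1rn are lowest in WT day 4 replicate 2 or the KO day 4 tumours, and the skeletal muscle list is highest in WT day 4 replicate 2, KO day 6 replicate 2 and KO day 4 replicate 2.

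The genes whose pattern over the 8 tumours was closest to that of the called members were taken by the Pearson correlation of log2 signals, which is given as a description because the tumours share their arrays, days and tissue content. They were Il17ra, Il2rb and Tm9sf4 for Il1r1 (r = 0.971, 0.968 and 0.965), Noc4l, Adar and Nemf for Il1rap (0.988, 0.982 and 0.978), and Ltv1, Pwp1 and Gtpbp1 for Il18bp (0.981, 0.980 and 0.980).

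Of the other ligands and receptors of the family, 6 genes were tested. Il1rl2, the receptor for the IL-36 cytokines, fell by 1.02 on the log2 scale between the days in WT tumours (SE 0.18, adjusted p = 0.0238 from limma), and was at -0.70 (adjusted p = 0.0572) in KO. Il1f9, which encodes IL-36 gamma, differed by 1.36 (adjusted p = 0.111) and Il1f10 by 1.03 (adjusted p = 0.362) between the days in KO, and no other gene of this list was called in any comparison.

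Of the genes that process and transmit the signal, Casp8, Myd88 and Irak3 were called, all between the days. In that comparison, 482 of the 12976 tested genes were called higher and 327 lower in KO tumours, and 540 and 216 in WT tumours. Of 12 tested inflammasome and pyroptosis genes, Casp8 rose between the days in KO by 0.51 (SE 0.12, adjusted p = 0.0468). Casp1, the protease that matures IL-1 beta and IL-18, differed by 0.82 (SE 0.26) there without passing (adjusted p = 0.0933). Casp4, which senses bacterial lipopolysaccharide in the cell, had a difference of the KO effects of 1.17 (SE 0.41, adjusted p = 0.995). Of 3 tested neutrophil and mast cell proteases that can cut these cytokines, 0 were called, with the largest value for the mast cell chymase Cma1 (0.88 for the difference of the KO effects, adjusted p = 0.995). In their list, 17 signalling genes were tested. Myd88, the adaptor of the whole receptor family, rose in KO tumours between the days by 0.85 (SE 0.17, adjusted p = 0.034 from limma), against 0.25 (adjusted p = 0.396) in WT. For Myd88 the difference of the KO effects was 0.59 (SE 0.24) and did not pass (adjusted p = 0.995 from limma). Irak3, an inhibitor of the pathway, fell by 1.02 in WT (SE 0.19, adjusted p = 0.0254) and by 0.78 in KO tumours (SE 0.19, adjusted p = 0.0493). The kinase Irak1 and the ubiquitin ligase Peli2 were not called.

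Among 26 tested genes that IL-1 is known to induce, 6 rose between day 4 and day 6 in KO and 2 in WT tumours, where 3.71% and 4.16% of all tested genes were called higher. Il6 had signals of 635.9 and 458.3 in KO day 4 and 2123.8 and 1299.4 in KO day 6 tumours, a rise of 1.59 (SE 0.27, adjusted p = 0.0227 from limma). In WT it had 594.9 and 475.2 at day 4 and 845.7 and 699.9 at day 6 (0.52, adjusted p = 0.265). For Il6 the difference of the KO effects was 1.07 (SE 0.38) and did not pass (adjusted p = 0.995 from limma). The monocyte attractant Ccl7 rose in KO by 1.95 (adjusted p = 0.0222). Its neighbour in function, Ccl2, rose in KO from 3921.6 and 2856.1 to 21005.4 and 8554.6 (adjusted p = 0.0249). Csf2, the growth factor GM-CSF, rose in both genotypes, by 2.33 in KO (adjusted p = 0.034) and 2.03 in WT (adjusted p = 0.045), from day 4 signals of 18.7 to 66.1, so that it too reached the filter only through day 6. Rising in both genotypes was also the endothelial adhesion gene Vcam1, by 1.23 in KO (adjusted p = 0.0269) and 1.43 in WT (adjusted p = 0.0197). The mitochondrial enzyme gene Sod2 rose in KO by 0.85 (adjusted p = 0.0334). The neutrophil attractant Cxcl5 had the value 2.23 in KO and did not pass (adjusted p = 0.121).

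The median of the 26 genes was 0.79 between the days in KO and 0.05 in WT tumours, with 19 and 15 of them positive. Between KO and WT the median was 0.37 at day 6 and -0.20 at day 4, with 20 and 8 of 26 positive and 0 called on either day. Medians over all tested genes were between -0.03 and 0.01. These genes also respond to other signals, and the list does not measure IL-1 activity.

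Of 8 tested genes of the cells that respond to IL-33, the eosinophil attractant Ccl24 had signals of 131.5 and 162.0 in KO day 4 and 6991.4 and 3323.3 in KO day 6 tumours, a rise of 4.90 (SE 0.38, adjusted p = 0.00206 from limma). In WT tumours it had 747.5 and 477.8 at day 4 and 1052.0 and 629.9 at day 6 (0.44, adjusted p = 0.517). The difference of the KO effects was 4.46 (SE 0.54) and did not pass (adjusted p = 0.327). Ccl17, an attractant of type 2 T cells, rose between the days in KO by 2.21 (SE 0.53, adjusted p = 0.0481) and was at 1.84 (adjusted p = 0.0757) in WT. The transcription factor Gata3 and the receptor gene Klrg1 were not called in any comparison. Called higher at day 6 in KO were thus 2 of the 8 genes, where 3.71% of all tested genes were. In WT tumours 0 were called, where the share was 4.16%. Between KO and WT the median of the 8 genes was -0.16 at day 6 and -0.57 at day 4. At day 6, 4 of 8 were positive and at day 4, 2 of 8, with 0 called on either day. The list does not measure IL-33 activity.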

How the data were processed

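Tumour RNA of 8 samples was hybridised to Affymetrix mouse arrays with 45101 probe sets. The deposited values are signal intensities that the authors made with MAS5, per the submitters' processing notes (version not given in the sources used here), on a linear scale with a 2% trimmed mean of 1000 per array. These values carry the authors' scaling and background steps, and a gene far below the array median is poorly resolved. The platform annotation gave 1 gene symbol to 34958 probe sets, several to 932 and none to 9211, and the last 2 kinds were not named. By Entrez identifier, 34754 were matched to a table of GRCm38.p6.

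Values were log2(signal + 16), so a fold change understates that of low genes. A gene entered the test if its mean log2 signal reached the 40th percentile, with limma 3.58.1 in R 4.3.3 (4 groups, trend, Benjamini-Hochberg adjustment over all tested genes, adjusted p under 0.05). The fit was tested on simulated data. The members, gene lists and comparisons were chosen with earlier results of these data known, and the promoter motifs after the values were seen. Named are all members, the targeted Tlr genes, up to 4 called genes and up to 2 more with the largest change of each pathway list, up to 3 genes of a marker list and the 3 closest genes of a called member. Sod2 falls outside this rule and was named after its values were seen, to complete a count. Labels give no batch. Precision is limited by 2 tumours per group. Other settings tried were median centring, quantile normalization, a pseudocount of 1 or 64, testing without a filter or with a filter at the 60th percentile, averaging every probe set per gene, omitting the trend, a block for the replicate number, a fit of only the groups compared, the methods' t-test, and each array left out in turn. Leaving out both arrays with the most muscle RNA and a crossed pairing were added after the data were seen.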

Additional observations from a re-analysis of the deposited data

Results flagged for a closer look

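The estimated KO effect on Il1rap had opposite signs on the 2 days, and neither passed limma's test (adjusted p = 0.704 at day 6 and 0.892 at day 4). Both KO tumours lay above both WT tumours at day 6 (log2 difference 0.71, SE 0.15) and both lay below them at day 4 (-0.18, SE 0.15). The day 4 effect was little larger than its error, so a reversal is not shown. Of all tested genes, 37.0% did not overlap at day 6 and 36.4% at day 4 in either direction. The difference of the effects was 0.89 (SE 0.21, adjusted p = 0.995 from limma over all genes), which did not pass, and its unadjusted p of 0.00256 comes from the same fit in limma. On the next 2 probe sets of Il1rap the KO effect was 0.43 and 0.43 at day 6 and -0.28 and -0.15 at day 4.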

How the results depend on the processing

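With 2 tumours a group, the test separates large and even changes only, and the dimmest members, Il1a and Il18bp at day 4, sit where the signal carries little information. Of 720 single-member values under the alternatives, 643 kept their direction and side of the threshold, 37 lost the call, 12 gained it and 28 turned direction. The cause was not tested. Alternatives that alter only the filter or the error cannot move a fold change, nor can leaving out an array outside the compared groups. Most values were also not called in the main fit, so the 643 do not measure robustness. Centring on the median moved all day differences by 0.19 in WT and 0.17 in KO and turned the calls from 540 higher and 216 lower genes to 1623 and 161 in WT, and from 482 and 327 to 1131 and 211 in KO tumours. Counts of called genes ranged down to 0 with the methods' t-test in WT and 1 in KO, to 4 higher and 5 lower in WT and 32 and 42 in KO with no trend, and to 7 and 4 in WT but 982 and 765 in KO with the compared groups alone. Leaving out WT day 6 replicate 1 gave 3 and 1 in WT, either KO day 4 tumour 21 and 11 in WT, and in KO tumours 3 and 0 without KO day 4 replicate 1, 4 and 1 without KO day 4 replicate 2, 90 and 69 or 97 and 51 without KO day 6 replicate 1 or 2, and 771 and 567 or 788 and 580 without WT day 4 replicate 1 or 2. In WT tumours the counts were 204 and 154 if WT day 4 replicate 1 was omitted, 308 and 162 if KO day 6 replicate 1 was, and 321 and 166 if KO day 6 replicate 2 was.

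In WT tumours the number of members called between the days was 0 with a pseudocount of 64, no filter, the 60th percentile filter, no trend, the compared groups alone and the methods' t-test, 0 to 2 with single tumours left out, and 2 (Il18bp and Il33) without both tumours of most muscle RNA. In KO it was 1 (Il18bp) with the mean of all probe sets, 1 (Il1rap) with no trend, 5 (Il18bp, Il1b, Il1r1, Il1rap and Il1rn) with the compared groups alone, 0 with the methods' t-test and 0 to 5 with single tumours left out. Without both tumours of most muscle RNA, 1 member (Il1rn, -2.05, adjusted p = 0.0139 from limma) was called between KO and WT at day 4 and 1 for the difference of the KO effects. The call of Il1rap between the days in KO was kept under 16 of 20 alternatives, that of Il1r1 under 11, and that of Il18bp under 7 in WT and 9 in KO. For Il18bp, testing without a filter and with the 60th percentile filter are the same fit.

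With single tumours left out, the values that turned direction ranged, for KO minus WT at day 6, from -0.88 to 0.30 for Il1a, -0.36 to 0.35 for Il1rn, -0.26 to 0.14 for Il18 and -0.67 to 0.74 for Il18bp. At day 4 they ranged from -0.51 to 1.42 for Il1b, -2.05 to 0.41 for Il1rn, -0.35 to 0.57 for Il1r2, -0.13 to 0.27 for Il18bp and -1.02 to 0.77 for Il33. Between the days they ranged from -0.83 to 0.35 for Il1a, -0.21 to 2.25 for Il1rn and -0.42 to 0.50 for Il1r2 in WT, and from -0.16 to 0.61 for Il1a in KO. Without both tumours of most muscle RNA, KO minus WT was 0.35 for Il1rn and 0.14 for Il18 at day 6, and -0.51 for Il1b and -0.35 for Il1r2 at day 4, and the difference between the days in WT was -0.21 for Il1rn and -0.42 for Il1r2. Centring gave 0.05 for Il1rn in KO minus WT at day 6, and the mean of all probe sets -0.09 for Il1rap between the days in WT.

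What tumours of equal replicate number have in common is not stated, and the deviations of same-numbered tumours correlated between -0.12 and 0.27. With the replicate number as a block, 0 members were called between the days in WT and 2 in KO tumours, and Il18bp had the values 2.29 (adjusted p = 0.0657) and 2.25 (adjusted p = 0.0685), with 320 higher and 143 lower genes in WT and 192 and 133 in KO. The block changed no other call of a member. A crossed pairing of the WT tumours called 2 members.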
